A study of Mus musculus with 4 samples.

Results

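Itch and its relatives were followed in RNA sequencing of mouse skin: 8 ubiquitin ligases of the Nedd4 family (Itch, Wwp1, Wwp2, Nedd4, Nedd4l, Smurf1, Smurf2 and Hecw2) and the adaptors Ndfip1 and Ndfip2. These 10 genes were chosen by family membership with earlier results of these data known. Hecw1, the remaining ligase of the family, was not among them. All 10 were found among the 39179 genes counted and passed the filter on low counts, which Hecw1 did not pass. The 4 libraries came from skin on the C57BL/6 background. In the first group, 2 libraries were labelled wild type (WT), and in the second, 2 were labelled Itch KO and taken from lesional skin of Itch knockout mice. By label the phenotype is inflammation in all 4 libraries, WT included. The labels name neither the Itch allele nor the age, sex or number of animals. Replicates of a group are separate samples by label only, so p-values rest on the spread among samples, which may be technical.

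HECT ligases take ubiquitin from a conjugating enzyme onto a cysteine of their own HECT domain and pass it on to a substrate. Ligases of the Nedd4 family recognise short proline-rich PPxY motifs through their WW domains. Ndfip1 and Ndfip2 are membrane proteins whose own PPxY motifs dock onto these WW domains and recruit or activate the ligases. In mice, loss of Itch is known for inflammation and scratching, and loss of Ndfip1 for inflammation of skin and other barrier tissues.

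The coding sequence around the active-site cysteine, a site common to HECT ligases, is printed here because it shows how far the relatives differ there. The stretches are 45 bases long and come from GENCODE vM21 transcripts (GRCm38), 5′ to 3′ on the coding strand, with the cysteine codon in capitals. They were located as the in-frame codon run for threonine, cysteine, phenylalanine and asparagine, which each of the 8 ligases holds once. Nedd4l was left out of the printing.
Itch: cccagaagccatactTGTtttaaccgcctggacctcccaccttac
Wwp1: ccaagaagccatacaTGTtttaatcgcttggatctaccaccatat
Wwp2: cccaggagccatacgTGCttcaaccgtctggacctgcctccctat
Nedd4: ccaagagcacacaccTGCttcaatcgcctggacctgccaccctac
Smurf1: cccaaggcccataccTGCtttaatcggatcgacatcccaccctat
Smurf2: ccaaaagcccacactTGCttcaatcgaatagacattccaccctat
Hecw2: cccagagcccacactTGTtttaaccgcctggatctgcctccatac

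Compared with Itch, the stretch differed at 7 of 45 bases in Hecw2, 8 in Wwp1, 9 in Wwp2, 11 in Nedd4, 13 in Smurf1 and 15 in Smurf2. In 7 of the 8 ligases an intron split the cysteine codon itself, the exception being Hecw2, where the codon lay within 1 exon. In Itch the codon is number 832 of 864, with its first base at position 155220279 of chromosome 2 at the end of exon 25 and its last base at 155224367 in exon 26. The windows were chr2:155220264-155224394 for Itch, chr4:19611786-19618301 for Wwp1 and chr8:107556768-107556914 for Wwp2, introns included. They were chr9:72746463-72747153 for Nedd4, chr5:144879429-144880641 for Smurf1, chr11:106822737-106823036 for Smurf2 and chr1:53813294-53826880 for Hecw2. Wwp1, Smurf1, Smurf2 and Hecw2 lie on the minus strand.

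The adaptor Ndfip2 has 2 PPxY codon runs, shown because they are its docking sites for these ligases, with the codons of each motif in capitals. The first lies in exon 2 at chr14:105287734-105287745 and the other in exon 3 at chr14:105292264-105292275, both on the plus strand. Ndfip1 holds 2 such codon runs as well.
Ndfip2 first site: cctgactctCCTCCTCCTTACagcagcatc
Ndfip2 second site: taccctgtgCCACCTCCGTACagtgttgct

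Identical stretches between members were at most 42 bases long. Between the coding sequences of Itch and the other 9 members the longest shared run was 20 bases (with Hecw2), and over all 45 pairs it was 23 bases (Ndfip1 with Ndfip2). Over whole transcripts, retained introns and untranslated parts included, the longest was 42 bases (Itch with Nedd4). The read length is not given in the sources used here, and whether reads were confused between members was not tested.

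All 4 libraries carried strong epidermal signal, and WT replicate 1 stood apart in muscle and hair genes. Gene reads numbered between 15144957 and 16008351 per library. Levels are given as CPM, counts scaled to a common library size after TMM correction for library composition. The 8 epidermal markers (Krt5, Krt14 and others) summed to between 13260 and 16100 CPM in each library, with 5 of the 8 lower and 1 higher in both knockouts. The 10 skeletal muscle markers summed to 17580 and 2899 CPM in WT replicates 1 and 2 and to 1336 and 1124 CPM in the knockouts. The 6 hair follicle keratin and trichohyalin markers summed to 36.3 and 7784 CPM in WT, against 5514 and 8453 CPM. Summed fibroblast markers stood at 1738 and 3126 CPM against 13430 and 12170 CPM, and macrophage and monocyte markers at 232 and 320 against 1399 and 1418 CPM. Xist and 4 Y-linked genes marked both WT libraries as female and both knockout libraries as male, so genotype and sex cannot be told apart here. The part of tissue makeup and of sex in the differences given next was not tested. In bulk skin, fewer cells of a type and less RNA per cell cannot be told apart.

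Itch mRNA was low but not absent in the knockouts. Reads on Itch (ENSMUSG00000027598, on the plus strand of chromosome 2 from 155133509 to 155226855, GRCm38) numbered 1450 and 1634 in WT skin, against 185 and 184 in KO skin. That is 96.7 and 103 CPM against 11.7 and 11.7 CPM, with no overlap between groups and libraries of a group close to each other. The knockout level was 11.7% of WT, with a 95% interval from 8.73% to 15.7% (log2 fold change -3.09, SE 0.16). Over all 16651 genes tested, edgeR's adjusted p was 0.0509, which misses the threshold of 0.05, and that of DESeq2 was 1.77e-37. The residual knockout signal lay well above the level that 3 reads allow, which is 0.189 and 0.191 CPM in those libraries. Counts per gene do not show which exons the remaining reads came from.

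**Figure D1:**
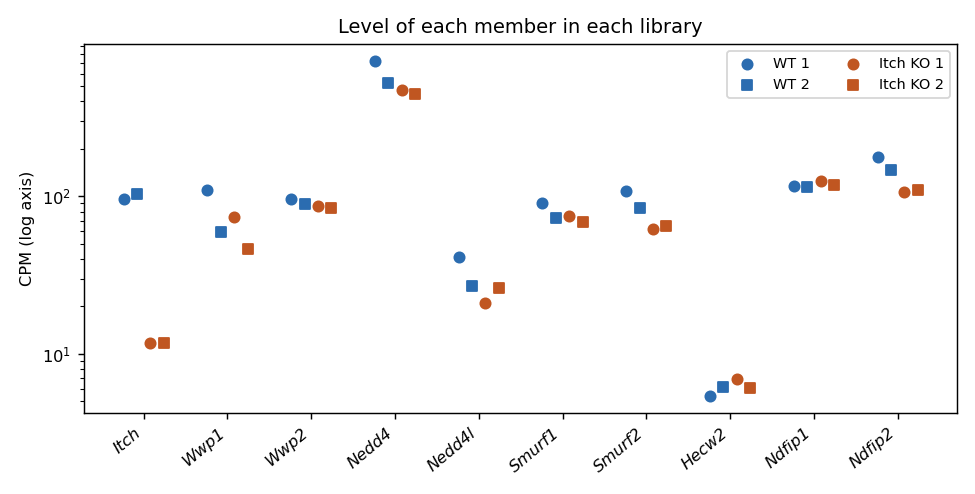
Level of the 10 genes in each library, in CPM on a log axis. Circles are replicate 1 and squares replicate 2 of WT (blue) and Itch KO (orange). Itch stands at 96.7 and 103 CPM in WT and at 11.7 CPM in both knockouts, a wider gap than that of any of the other 9 genes.

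None of the 9 relatives of Itch was called different by edgeR or DESeq2 with all 4 libraries, in either direction. In edgeR 0 of the 10 genes passed at the adjusted threshold, against 0.00601% of all genes tested, so the test called almost nothing anywhere. The 1 gene it called was the Y-linked Eif2s3y (edgeR adjusted p = 0.0269). At an unadjusted p under 0.05, 3 of the 10 were lower (Itch, Smurf2 and Ndfip2), where 10.9% of all genes tested were lower, and 0 were higher, where 12.0% were. DESeq2 called Itch alone as lower, where it called 6.28% of all genes lower and 7.99% higher. Both knockout libraries lay below both WT libraries for 6 of the 10 genes (Itch, Wwp2, Nedd4, Nedd4l, Smurf2 and Ndfip2) and above them for 1 (Ndfip1). Over all genes tested these shares were 30.0% and 31.2%. The median log2 fold change of the 10 was -0.46, against 0.01 for all genes tested. Itch itself, the gene knocked out, is among the lower genes in these counts and is part of that median.

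Transcript length went with direction over all genes tested, and the longest annotated transcript of all 10 members is long. It runs from 4314 bases (Wwp2) to 11263 bases (Hecw2), though the longest protein-coding transcript of Ndfip1 has 1796 bases and that of Ndfip2 2532. Among 5516 tested genes with a longest transcript of 4000 bases or more, the median log2 fold change was -0.18, and both knockouts lay below both WT libraries for 42.6%. Among 4605 genes under 2000 bases, the median was 0.21 and that share was 18.2%. The part of length in the members' differences was not tested.

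**Figure D2:**
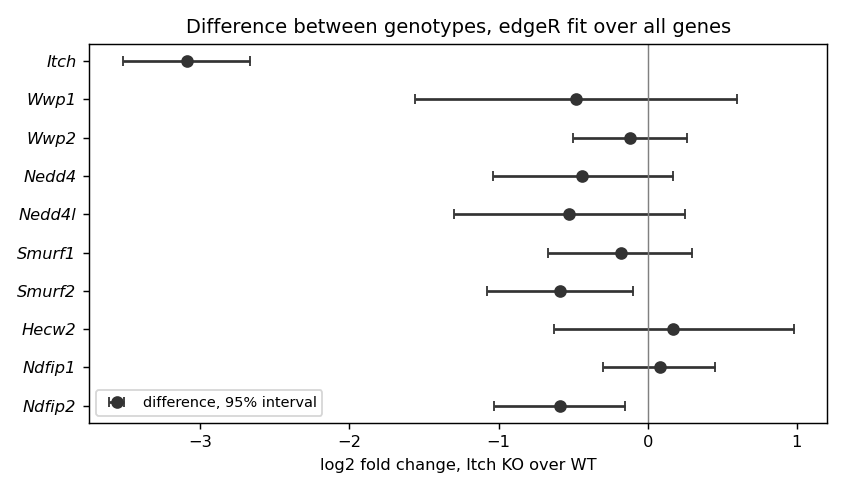
Log2 fold change of Itch KO over WT for each gene (points) with its 95% interval (bars) from the edgeR fit over all genes. The intervals of Itch, Smurf2 and Ndfip2 lie below 0, and those of the other 7 genes include 0.

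Nedd4 was the most abundant member in every library. Nedd4, the founding ligase of the family, known for receptor and channel turnover (GRCm38 chromosome 9, 72662346 to 72749852, plus strand), stood at 723 and 522 CPM in WT skin against 474 and 445 CPM in KO skin. The knockouts lay below both WT libraries, and WT replicate 1 was higher than the rest. The difference of -0.44 on the log2 scale (SE 0.23, edgeR adjusted p = 0.316) was smaller than the gap of 0.47 between the WT libraries, and its 95% interval ran from -1.04 to 0.17. Without WT replicate 1 it was -0.19, and without WT replicate 2 it was -0.65. Nedd4l, which limits the epithelial sodium channel (chromosome 18, 64887705 to 65217828, plus strand), stood at 41.3 and 27.0 CPM in WT skin against 21.1 and 26.3 CPM in KO skin. WT replicate 2 and knockout replicate 2 nearly met. Its difference was -0.53 (SE 0.29, edgeR adjusted p = 0.335). It was -0.19 without WT replicate 1 and -0.8 without WT replicate 2. An antisense gene, A330084C13Rik, shares 277 exonic bases with Nedd4l, 1.57% of its exon length. The strand setting of the counting is not given in the sources used here, so reads there cannot be assigned.

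Smurf2 was the one relative among the ligases with an unadjusted p under 0.05. The Smurf ligases were named for targeting Smad proteins of the TGF-beta and BMP pathways. Smurf2 (chromosome 11, 106820066 to 106920715, minus strand) stood at 107 and 84.2 CPM in WT skin against 62.3 and 64.6 CPM in KO skin. Both knockouts were below both WT libraries and close to each other. The knockout level was 66.3% of WT, with a 95% interval from 47.2% to 93.1% (log2 fold change -0.59, SE 0.18, edgeR adjusted p = 0.176, DESeq2 adjusted p = 0.0915). Smurf1 (chromosome 5, 144876495 to 144965847, minus strand) stood at 90.7 and 72.5 CPM in WT skin against 75.2 and 68.5 CPM in KO skin. The groups overlapped, and the log2 difference was -0.18 (95% interval -0.67 to 0.30, edgeR adjusted p = 0.571). It was -0.02 without WT replicate 1 and -0.33 without WT replicate 2. Whether Smurf1 and Smurf2 differed from each other in response was not tested.

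Wwp1 and Wwp2, the closest relatives of Itch, were called by neither tool. Wwp2 (chromosome 8, 107436365 to 107558595, plus strand) was even across libraries, at 96.3 and 90.0 CPM in WT skin against 87.0 and 84.4 CPM in KO skin. The knockouts were slightly below, with a log2 difference of -0.12 and a 95% interval from -0.50 to 0.26 (edgeR adjusted p = 0.637). Wwp1 (chromosome 4, 19608303 to 19708993, minus strand) varied most within groups, at 109 and 59.0 CPM in WT skin against 74.2 and 46.5 CPM in KO skin. Replicate 1 exceeded replicate 2 in both groups, by 0.89 on the log2 scale in WT and 0.68 in the knockouts. Its difference between genotypes was -0.48 (SE 0.40, 95% interval -1.56 to 0.60, edgeR adjusted p = 0.503). It turned to 0.03 without WT replicate 1 and was -0.85 without WT replicate 2.

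Hecw2, the largest of the ligases by coding length with 1578 codons, was near the lower end of what was measured. The gene (chromosome 1, 53806876 to 54195168, minus strand) had 81 and 98 reads in WT skin against 110 and 96 in KO skin, or 5.40 and 6.19 CPM against 6.95 and 6.12 CPM. The groups overlapped, and the interval of the log2 difference was wide, from -0.63 to 0.98 (edgeR adjusted p = 0.754). Hecw1, the remaining ligase of the family, had 1 read in each WT library and 0 in each knockout library and was not tested.

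Of the 2 adaptors, Ndfip1 was close between groups and Ndfip2 lower, neither past the adjusted threshold, and their difference from each other was not tested. Ndfip1 (chromosome 18, 38410396 to 38465303, plus strand) stood at 116 and 115 CPM in WT skin against 126 and 118 CPM in KO skin. All 4 values were close, with the knockouts slightly above, and the log2 difference was 0.08 (SE 0.14, 95% interval -0.30 to 0.45, edgeR adjusted p = 0.762). Ndfip2 (chromosome 14, 105258573 to 105309298, plus strand) stood at 177 and 146 CPM in WT skin against 106 and 109 CPM in KO skin. Both knockouts were below both WT libraries, at 66.5% of WT with a 95% interval from 49.0% to 90.3% (log2 fold change -0.59, SE 0.16). Neither tool called it, with adjusted p = 0.159 in edgeR and 0.0507 in DESeq2. An antisense processed pseudogene, Gm16259, shares 553 exonic bases with Ndfip2, 4.79% of its exon length. Per length of annotated exon, the ratio of Ndfip1 to Ndfip2 was 1.20 and 1.43 in WT skin against 2.16 and 1.98 in KO skin, a description that carries no test. By the longest protein-coding transcripts it was 0.927 and 1.10 against 1.67 and 1.53.

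**Figure D3:**
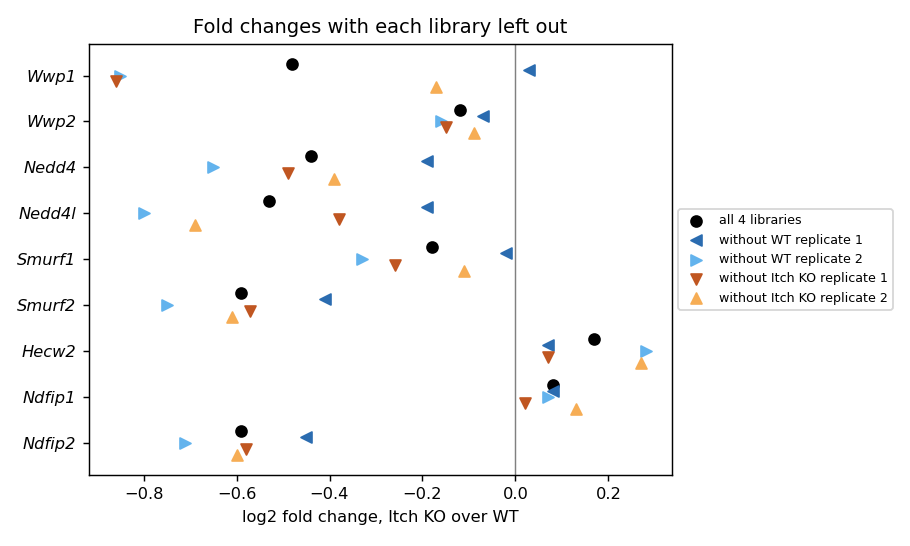
Log2 fold change of Itch KO over WT for the 9 relatives of Itch with all 4 libraries (black) and with each library left out in turn (triangles). Without WT replicate 1 the values of Wwp1, Nedd4, Nedd4l, Smurf1, Smurf2 and Ndfip2 move towards or past 0, and without WT replicate 2 they move away from it.

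For Smurf2 and Ndfip2 the difference was smaller without WT replicate 1. That library was rich in muscle transcripts and poor in hair follicle transcripts. The part of tissue makeup in the difference was not tested. Without that library the log2 differences were -0.41 for Smurf2, -0.45 for Ndfip2, 0.08 for Ndfip1 and -3.14 for Itch. Without WT replicate 2 they were -0.75 for Smurf2 and -0.71 for Ndfip2. Without knockout replicate 1 they were -0.57 and -0.58, and without knockout replicate 2 they were -0.61 and -0.60. Each of these fits takes the spread of the group with a single library from the other group.

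Set against each other per length, the members fell into a steep order in WT skin. CPM values were divided by kilobases of annotated exon, so this scale orders genes, while it says nothing about protein. Nedd4 led with 65.9 and 47.6 CPM per kilobase, above every other member. Ndfip1 followed with 18.4 and 18.1, then Smurf2 with 17.4 and 13.7, Ndfip2 with 15.3 and 12.7, Wwp1 with 16.9 and 9.14 and Smurf1 with 14.3 and 11.4 CPM per kilobase. Smurf2, Ndfip2, Wwp1 and Smurf1 overlapped one another, all below Ndfip1. Wwp2 (10.9 and 10.1) and Itch (9.96 and 10.6 CPM per kilobase) overlapped each other next, below all of these but Wwp1, which they overlapped. Nedd4l (2.34 and 1.53) and Hecw2 (0.417 and 0.478 CPM per kilobase) were the lowest. With the longest protein-coding transcript as the length, a choice made after seeing the data, Ndfip1 and Ndfip2 stood at 64.3 and 63.8 CPM per kilobase as WT means, since that transcript measures 1796 and 2532 bases against 6331 and 11553 bases of annotated exon. Itch then took place 5 of 10 in place of 8.

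Itch made up a small share of the ligase transcripts in WT skin. Of the summed level of the 8 ligases per kilobase of exon, Itch held 7.21% and 10.2% in WT skin against 1.35% and 1.48% in KO skin. Nedd4 held 47.7% and 45.5% in WT skin against 48.3% and 49.6% in KO skin. The other 7 ligases without Itch summed to 128 and 94.0 CPM per kilobase in WT skin against 88.3 and 80.5 in KO skin. That sum was highest in WT replicate 1, and whether it differed between genotypes was not tested. The summed adaptors stood at 33.7 and 30.8 CPM per kilobase in WT skin against 29.0 and 28.1 in KO skin. Per unit of summed ligase that was 0.244 and 0.294 in WT skin against 0.324 and 0.343 in KO skin. By the longest protein-coding transcripts the same ratio was 0.58 and 0.685 against 0.75 and 0.784, so its size depends on the length used.

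**Figure D4:**
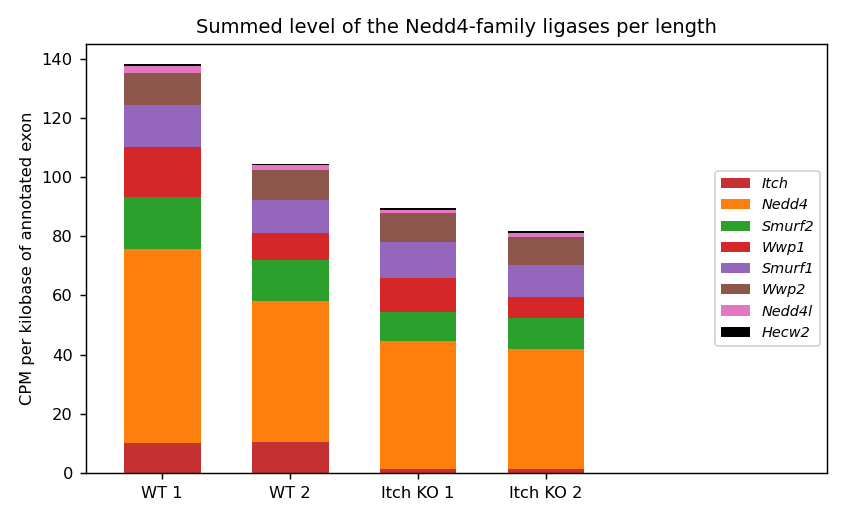
Stacked level of the 8 Nedd4-family ligases in each library, in CPM per kilobase of annotated exon, with Itch at the base. Nedd4 is the largest block in all 4 libraries, and the sum goes from 138 and 105 in WT to 89.5 and 81.7 in the knockouts.

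Other HECT ligases leaned the same way as the members. Of 18 tested genes of 19 listed, 15 had both knockouts below both WT libraries and 0 above, and the median log2 fold change was -0.50. Of all genes tested, 30.0% lay below in this way, and 42.6% of those with a longest transcript of 4000 bases or more. In edgeR 0 passed the adjusted threshold, 6 were lower by the unadjusted p (10.9% of all genes tested), and 4 were lower by DESeq2, which called 6.28% of all genes lower (among them Huwe1, Hace1 and Hectd4, the last named after its values were seen). Huwe1, a very large ligase with many nuclear substrates, stood at 406 and 327 CPM in WT skin against 208 and 216 CPM in KO skin (log2 fold change -0.79, SE 0.18, edgeR adjusted p = 0.126). Huwe1 lies on the X chromosome. Hace1, a ligase for the small GTPase Rac1, stood at 68.7 and 68.3 CPM against 39.6 and 43.3 CPM. In Huwe1 and Hace1 the groups did not overlap.

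Among ubiquitin genes and the enzymes that load ubiquitin, the tests called about the background share. Of 15 genes, 10 had both knockouts above both WT libraries and 3 below, where the shares over all genes tested were 31.2% and 30.0%. The median log2 fold change was 0.23. In edgeR 0 passed the adjusted threshold, 2 were higher by the unadjusted p (12.0% of all genes tested), and by DESeq2 Ube2l6 alone was higher (7.99% of all genes). Ube2l6, the conjugating enzyme for the ubiquitin-like protein ISG15 and an interferon-induced gene, stood at 15.3 and 11.8 CPM in WT skin against 37.1 and 30.8 CPM in KO skin (log2 fold change 1.33, SE 0.24, edgeR adjusted p = 0.0969). Ube2d2a, a conjugating enzyme, stood at 29.1 and 37.9 CPM against 48.9 and 55.1 CPM. The conjugating enzyme Ube2l3, with which Itch is known to work, stood at 67.1 and 61.6 against 70.0 and 79.0 CPM.

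Further adaptors and regulators of the family went both ways. Of 20 genes, 6 had both knockouts above and 8 below both WT libraries, where the shares over all genes tested were 31.2% and 30.0%. Log2 fold changes had a median of 0.12 and ran from -1.25 to 2.41. In edgeR 0 passed the adjusted threshold, 4 stood higher and 3 lower by the unadjusted p, while by DESeq2 these counts were 3 and 2. Over all genes the shares were 12.0% higher and 10.9% lower by the unadjusted p, and 7.99% and 6.28% by DESeq2. Laptm5, a lysosomal protein of blood cells that binds Nedd4 through PY motifs, stood at 51.9 and 47.6 CPM in WT skin against 296 and 232 CPM in KO skin (log2 fold change 2.41, SE 0.20, edgeR adjusted p = 0.0548, DESeq2 adjusted p = 3.83e-19). The macrophage and monocyte markers were higher in the same libraries, with 6 of 6 above both WT libraries. The part of that in the Laptm5 result was not tested. Fam189a2, a membrane protein described as an activator of Itch, stood at 81.5 and 64.4 CPM in WT skin against 32.7 and 37.5 CPM in KO skin, 48.1% of WT (log2 fold change -1.06, SE 0.20, edgeR adjusted p = 0.0985, DESeq2 adjusted p = 0.00125). Arrdc4, an arrestin-like adaptor with PPxY motifs, stood at 51.5 and 62.9 CPM against 97.3 and 108 CPM (log2 fold change 0.85, edgeR adjusted p = 0.114). DESeq2 also called Pmepa1, a PY-motif inhibitor of TGF-beta signalling, as higher (37.9 and 103 against 199 and 260 CPM). It called Usp9x, an X-linked deubiquitinase that acts on Itch, as lower (124 and 71.9 against 45.2 and 37.2 CPM). Both were named after their values were seen.

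**Figure D5:**
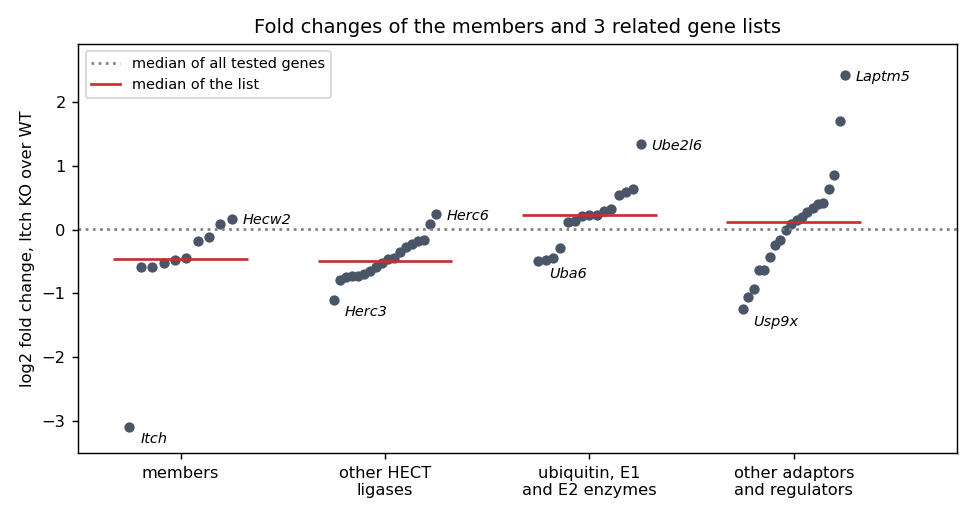
Log2 fold change of Itch KO over WT for each tested gene (points) of the 10 members and of 3 related lists, with each list's median (red) and the median of all tested genes (dotted, 0.01). The medians are -0.46, -0.50, 0.23 and 0.12 from left to right, with Itch far below and Laptm5 above the rest.

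Genes with a pattern near that of Itch were sought over the 4 libraries. Likeness was the root mean square difference of log2 CPM over the 4 libraries after centring each gene, among tested genes with a mean of 5 CPM or more. The nearest were Ano7 at 0.397, Carns1 at 0.413, Mrgprb3 at 0.442, Gprin2 at 0.473 and Skint6 at 0.480 log2 units. Ano7, of the anoctamin family, stood at 12.7 and 10.5 CPM in WT skin against 2.21 and 2.29 CPM in KO skin. Carns1, which makes carnosine, stood at 21.0 and 14.96 against 3.10 and 3.63 CPM. Mrgprb3 (38.7 and 17.8 against 2.65 and 3.25 CPM) and Skint6 (100 and 49.2 against 12.4 and 11.5 CPM) belong to families of similar genes. Their counts may be uncertain for that reason, which was not tested. Gprin2 stood at 13.3 and 6.00 CPM against 0.884 and 1.27 CPM. In the last 3, the WT libraries differed from each other by over 1 on the log2 scale, which Itch did not, with a gap of -0.09.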

How the data were processed

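Deposited values were read counts per Ensembl gene in 1 file per library, not normalized by the authors. The submitters' processing notes name HTSeq 0.6.1, SAMtools 0.1.19, TopHat2 and CASAVA 1.8.2, with the build mm10 (GRCm38). Annotation release, strand setting and read length: not given in the sources used here. The 5 special counter lines stayed out of library sizes and tests (unassigned reads 5.68% to 7.45%, ambiguous reads 4.48% to 4.70%). Symbols, positions and lengths came from GENCODE vM21, which held 37693 of 39179 identifiers. Spart was found as Spg20 through the RefSeq table.

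Testing used edgeR 4.0.16 under R 4.3.3: filterByExpr with a minimum count of 10, TMM scaling and the two-sided quasi-likelihood F test, robust and with legacy=TRUE, Benjamini-Hochberg adjustment over 16651 genes and a threshold of 0.05. A fold change is the log2 ratio, knockout over WT. SE is the fold change over the root of F. DESeq2 1.42.0 and limma-voom 3.58.1 were alternatives, with RLE scaling, no filter, each library left out, a replicate block, X and Y genes left out, and muscle and mitochondrial genes left out. The procedure was tested on simulated counts. Counting error alone underlies floors of 3 reads.

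The 10 members and the lists were chosen with earlier results of these data known. The text names the members, the 3 genes of smallest p in each related list, and the 5 genes most like Itch (prior count 0.5, predicted genes left out). Other names were chosen after their values were seen. Some genes that the rule named are not reported here. Of the marker lists, adipocyte genes summed to 2544 and 1316 CPM in WT skin against 1831 and 1618 in KO skin, endothelial genes to 279.9 and 123 against 339 and 285, neutrophil genes to 9.53 and 31.8 against 1989 and 849, T cell genes to 52.9 and 33.1 against 60.6 and 47.0, and mast cell genes to 116 and 209.6 against 394 and 684 CPM.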

Additional observations from a re-analysis of the deposited data

How the results depend on the processing

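The number of genes called depended on the processing, while the fold change of Itch did not. With all genes, edgeR called 1 of 16651, the Y-linked Eif2s3y. It called 488 with no filter, 0 with a replicate block (3998 at an unadjusted p under 0.05), 0 with X and Y genes left out (3649) and 0 to 5320 with 1 library left out. DESeq2 called 2329 and limma-voom 0 (3582). Of the 10 members, 0 were called, against 1 with no filter, 1 in DESeq2 and 0 to 5 with 1 library left out. Itch crossed the threshold at -3.07 with no filter (edgeR adjusted p = 0.0117) and at -3.10 in DESeq2, but not in limma-voom (adjusted p = 0.0676). With 1 library left out its fold change ranged from -3.14 to -3.04. With the replicate block the adjusted p of Itch was 0.0882 in edgeR, and that block changed no member's call. Deviations of same-numbered libraries correlated at 0.162, and the labels tie the numbers to nothing shared. Wwp1 reversed without WT replicate 1 (range -0.86 to 0.03). The cause was not tested in any of these. By longest transcript or longest protein-coding transcript, Itch took place 5 in WT in place of 8, and its knockout share of the ligases was 1.53% in place of 1.41%, since these lengths leave out exons of other transcripts. Hecw1 did not pass the filter on low counts and was not tested, with 1 read in each WT library and 0 in each knockout library.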
